A study of Bos taurus with 4 samples.

Results

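Transcripts of the calcineurin, NFAT and store-operated calcium entry route were followed in bovine gamma delta T cells given an apple polyphenol extract. The route was represented by 10 genes chosen by symbol: the transcription factor genes NFATC1, NFATC2 and NFATC3, the calcineurin subunit genes PPP3CA, PPP3CB and PPP3R1, the calcineurin regulators RCAN1 and CABIN1, and the calcium entry genes STIM1 and ORAI1. Of these, 8 genes with 12 probe sets were found among the 9155 named genes of the array, 4 of them with 1 probe set and 4 with 2. NFATC2 and CABIN1 had no probe set under those names and were not analysed here.

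The 4 arrays came from 2 calves, numbered 301 and 303, whose sorted gamma delta T cells were stimulated for 4 h either with an aqueous apple polyphenol extract (APP, 42.2 µg/ml) or with phosphate-buffered saline (PBS). Each calf gave 1 PBS array and 1 APP array, so each group holds 2 arrays from separate animals. All 4 samples share the sort from peripheral blood to a purity above 97% and an overnight rest before stimulation. The labels give the calves' age as 1 to 6 months, while the series' design text calls them neonatal. Arrays have no read depth, and their number, 2 per group, limits the precision.

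In lymphocytes, engagement of the antigen receptor empties the calcium store of the endoplasmic reticulum. STIM1 senses the loss and opens ORAI1 channels in the plasma membrane, and the calcium that enters acts through calmodulin on calcineurin, a phosphatase made of a catalytic A subunit and a regulatory B subunit. Calcineurin removes phosphates from NFAT proteins, which then enter the nucleus and act on cytokine genes, while RCAN1 binds calcineurin and is a well-known target of NFAT itself.

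With APP, RCAN1, NFATC1, PPP3R1 and PPP3CA rose and ORAI1 fell, while NFATC3, PPP3CB and STIM1 did not pass the test. RCAN1 rose 2.45-fold, NFATC1 1.75-fold, PPP3R1 1.57-fold and PPP3CA 1.30-fold, and ORAI1 fell 1.45-fold. When the arrays were instead scaled to the hybridization controls described below, RCAN1 stayed above 0 but NFATC1, PPP3R1 and PPP3CA changed sign. The test was limma with the calf as a block over all named genes, with adjusted p below 0.05 as the threshold, and 23.0% of all genes rose and 29.7% fell in it. The 4 rises and 1 fall among 8 genes are read beside those shares, and the genes were chosen with earlier results of these data known.

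Values below are log2 ratios of a probe set's signal to its own median over the 4 arrays, averaged over the probe sets of a gene, so 0 is close to the middle of the 4 arrays. The level of one gene cannot be set against that of another on this scale. In RNA from a whole cell sample, fewer cells of a type and less RNA per cell cannot be told apart.

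**Figure D1:**
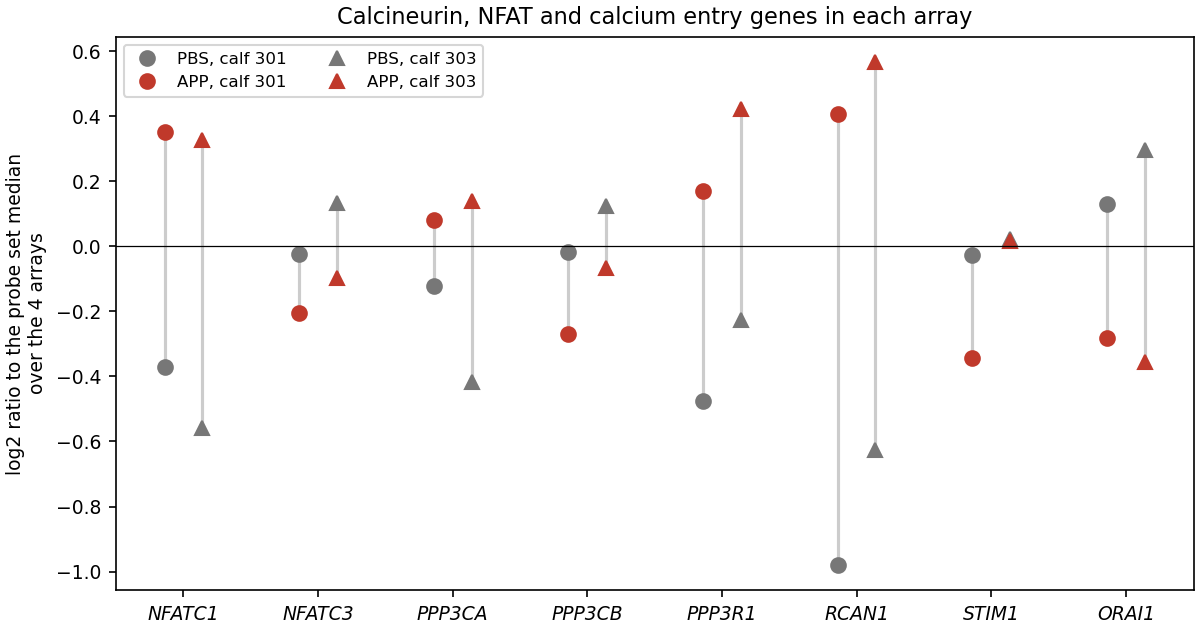
Log2 ratio of each gene to its probe set median (vertical axis) in the 4 arrays, with circles for calf 301, triangles for calf 303, grey for PBS, red for APP and a line joining the arrays of one calf. RCAN1 ran from -0.98 to 0.57 and NFATC1 from -0.56 to 0.35 with both APP arrays above both PBS arrays, while the arrays of STIM1 overlapped between the treatments.

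The calcium entry genes come first in the route. ORAI1, the pore subunit of the store-operated channel, stood at 0.13 and 0.30 in PBS of calves 301 and 303, and at -0.28 and -0.35 in APP. Both APP arrays were below both PBS arrays, with a gap of 0.41 between the groups. The change was -0.41 in calf 301 and -0.65 in calf 303 (mean -0.53 ± 0.17, SD, n = 2 calves, limma adjusted p = 0.00504). It lost the threshold in the fit without the PBS array of calf 303, where it was -0.45. With any other array left out it ran from -0.62 to -0.50. Among alternatives that kept every array, those not scaled to the hybridization controls all passed. Their limma adjusted p ran from 0.0033 (probe set of widest range) to 0.0225 (quantile normalization). Scaling to the hybridization controls, described below, gave -1.38. That fall is no separate evidence for ORAI1, because 8182 of 9155 genes fell there and the median change was -0.84.

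STIM1, the sensor of the calcium store, stood at -0.03 and 0.02 in PBS and at -0.34 and 0.02 in APP of calves 301 and 303. The APP array of calf 301 was the low one, and the other 3 arrays lay within a narrow band around 0. The mean change was -0.16 ± 0.22 (SD, n = 2 calves), with a 95% interval from -0.43 to 0.10, and did not pass (limma adjusted p = 0.261). With the low array left out, the change was 0.02 (limma adjusted p = 0.93).

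Both calcineurin subunit types had a member that rose. PPP3R1, which encodes the calcium-binding B subunit, stood at -0.48 and -0.23 in PBS and at 0.17 and 0.42 in APP of calves 301 and 303. Calf 303 was the higher of the 2 animals in each treatment, and the change was almost equal in them, 0.646 in calf 301 and 0.648 in calf 303. The mean of 0.65 passed with an adjusted p of 0.00127 (limma, standard error 0.095), but not when the APP array of calf 303 was left out (0.52, limma adjusted p = 0.058) or the PBS array of calf 301 (0.52, limma adjusted p = 0.0929).

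PPP3CA, the gene of the alpha isoform of the catalytic subunit, stood at -0.12 and -0.42 in PBS and at 0.08 and 0.14 in APP. Both APP arrays lay above both PBS arrays by 0.20 or more, and the low PBS array of calf 303 made the change larger in that calf, 0.56 against 0.20 in calf 301. The mean of 0.38 ± 0.25 (SD, n = 2 calves) passed narrowly (limma adjusted p = 0.0299). It did not pass without the replicate block (limma adjusted p = 0.0737), after quantile normalization (adjusted p = 0.0508), or in any fit that left out 1 array, where adjusted p ran from 0.0643 without the PBS array of calf 301 to 0.359 without the PBS array of calf 303.

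PPP3CB, the beta isoform of the catalytic subunit, stood at -0.02 and 0.12 in PBS and at -0.27 and -0.07 in APP. The APP arrays were the lower ones by a gap of 0.05 only. The mean change of -0.22 ± 0.05 (SD, n = 2 calves) did not pass (limma adjusted p = 0.0919), and its 95% interval ran from -0.45 to 0.01. Its 2 probe sets went apart. One fell in the fit over probe sets (mean -0.59, adjusted p = 0.00869, limma), with -0.71 in calf 301 and -0.47 in calf 303. The other gave 0.20 and 0.10 (mean 0.15, adjusted p = 0.326).

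Changes of 2 genes on the same arrays can be subtracted, which removes any factor that an array applies to all probe sets alike. PPP3CA changed more than PPP3CB by 0.46 in calf 301 and 0.74 in calf 303, and PPP3R1 changed more than PPP3CB by 0.90 and 0.84. These differences are a description with no test, and for PPP3CB they depend on which probe set is taken.

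Of the NFAT genes, NFATC1, whose product is the member of the family known to be induced on activation, stood at -0.37 and -0.56 in PBS and at 0.35 and 0.33 in APP of calves 301 and 303. The 2 APP arrays were nearly level, and a gap of 0.70 separated them from the PBS arrays. The change was 0.72 in calf 301 and 0.89 in calf 303 (mean 0.80 ± 0.11, SD, n = 2 calves, limma adjusted p = 0.000574). Both probe sets rose, by 0.72 (limma adjusted p = 0.00271) and by 0.89 (limma adjusted p = 0.00193). The rise passed in each fit that left out 1 array. A rise at least as large as that of NFATC1 in both calves was found for 549 genes, 6% of those tested.

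NFATC3, a family member present in resting T cells, stood at -0.02 and 0.13 in PBS and at -0.21 and -0.10 in APP. The APP arrays were lower by a gap of 0.08. The mean change of -0.21 ± 0.03 (SD, n = 2 calves) did not pass (limma adjusted p = 0.107), with a 95% interval from -0.43 to 0.02. One of its probe sets fell (-0.54 in calf 301, -0.29 in calf 303, mean -0.42, adjusted p = 0.0332, limma). The other went up by 0.18 in calf 301 and down by the same amount in calf 303, and did not pass (adjusted p = 0.998). NFATC1 changed more than NFATC3 by 0.91 in calf 301 and 1.12 in calf 303, a 2.02-fold difference between the 2 NFAT genes in the mean, which was not tested.

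RCAN1, the inhibitor that feeds back on calcineurin, had the largest change of the 8 genes. It stood at -0.98 and -0.63 in PBS and at 0.41 and 0.57 in APP of calves 301 and 303, or 0.507 and 0.648 against 1.33 and 1.48 as linear ratios. The groups were 1.03 apart at their nearest arrays, and calf 303 was the higher animal in both treatments. The change was 1.39 in calf 301 and 1.19 in calf 303 (mean 1.29 ± 0.14, SD, n = 2 calves, limma adjusted p = 8.36e-05), and RCAN1 alone among the 8 genes changed at least 2-fold in both calves. Its adjusted p stayed at or below 0.00978 over the 11 alternatives. It ranked 239 of 9155 genes from the largest rise, and 236 genes, 2.58% of those tested, rose at least as far in both calves.

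**Figure D2:**
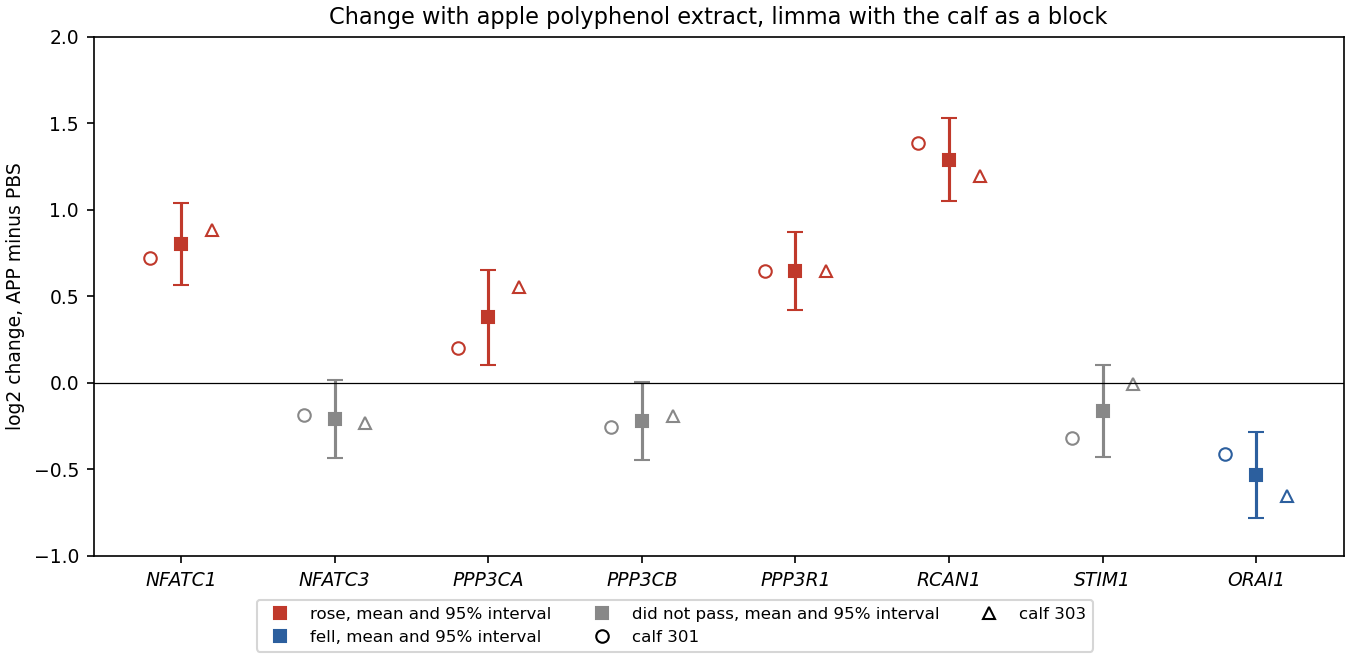
Log2 change, APP minus PBS (vertical axis), with squares for the mean over the 2 calves, bars for limma's 95% interval, open circles for calf 301 and open triangles for calf 303. The means ran from -0.53 for ORAI1 to 1.29 for RCAN1, and the intervals of NFATC3, PPP3CB and STIM1 include 0.

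The 8 genes each had the same sign of change in both calves, which held for 84.7% of all genes. In 7 of them, all but STIM1, the APP and PBS arrays did not overlap, which held for 73.8% of all genes. Their median change was 0.11, against 0.01 for all genes, and it was 0.01 in calf 301 and 0.27 in calf 303. Over single probe sets, 4 of 12 rose and 3 fell, beside 16.3% and 23.6% of all probe sets. PPP3CA was not among those 4 (adjusted p = 0.0574, limma, over probe sets), while NFATC1 gave 2 of them. The ORAI1 probe sets changed by -0.66 (adjusted p = 0.00378, limma) and by -0.40 (adjusted p = 0.0719, limma). The probe sets of PPP3CB lay 0.74 apart in their changes, and a distance above 0.5 was seen in 34.5% of the 2913 genes with several probe sets.

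**Figure D3:**
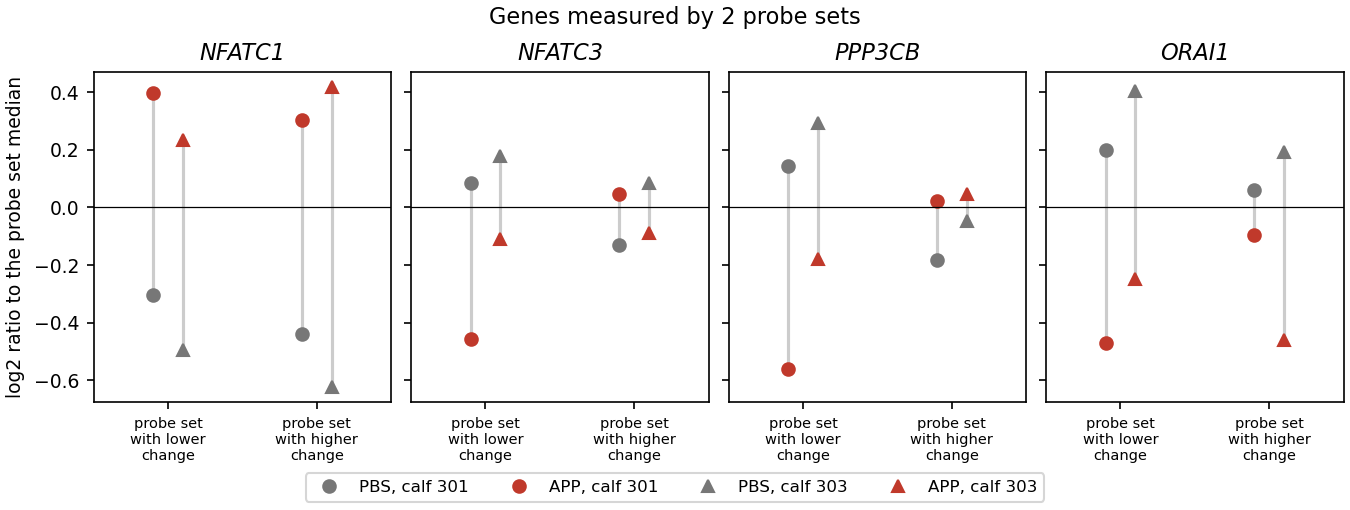
Log2 ratio to the probe set median (vertical axis) for both probe sets of NFATC1, NFATC3, PPP3CB and ORAI1, in the 4 arrays (circles calf 301, triangles calf 303, grey PBS, red APP). Both probe sets of NFATC1 rose, by 0.72 and 0.89, while those of PPP3CB changed by -0.59 and 0.15.

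The difference between the calves is the other term of the same limma fit. In it 0 of the 8 genes passed, where 1.27% of all genes were higher and 0.437% lower in calf 303. At an unadjusted p under 0.05 there were 2 of the 8 genes, beside 17.1% of all genes. The 2 were RCAN1, higher in calf 303 by 0.26 (adjusted p = 0.268, limma), and PPP3R1, higher by 0.25 (adjusted p = 0.247, limma).

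The hybridization controls moved with the treatment. These 14 probe sets for bioB, bioC and bioD read bacterial transcripts that are added to the hybridization mix, and on average they were higher on the APP array by 0.76 in calf 301 and 0.94 in calf 303. Scaling each array to them moved the median change of all genes from 0.01 to -0.84 and the calls from 2104 rises and 2717 falls to 286 rises and 8182 falls. RCAN1 then changed by 0.44 (limma adjusted p = 0.00487), NFATC1 by -0.05 (adjusted p = 0.769), PPP3R1 by -0.20 (adjusted p = 0.193) and PPP3CA by -0.47 (adjusted p = 0.00251), and ORAI1 stood at -1.38. Relative to the median gene, the same under both scalings, RCAN1 lay 1.28 and NFATC1 0.79 above it, PPP3R1 0.64 and PPP3CA 0.37 above it, and STIM1 0.17, NFATC3 0.22, PPP3CB 0.23 and ORAI1 0.54 below it. The fit scaled to the controls used a common variance for all genes, so its adjusted p cannot be set beside those of the reported fit. The part of the controls' shift in the changes was not tested.

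**Figure D4:**
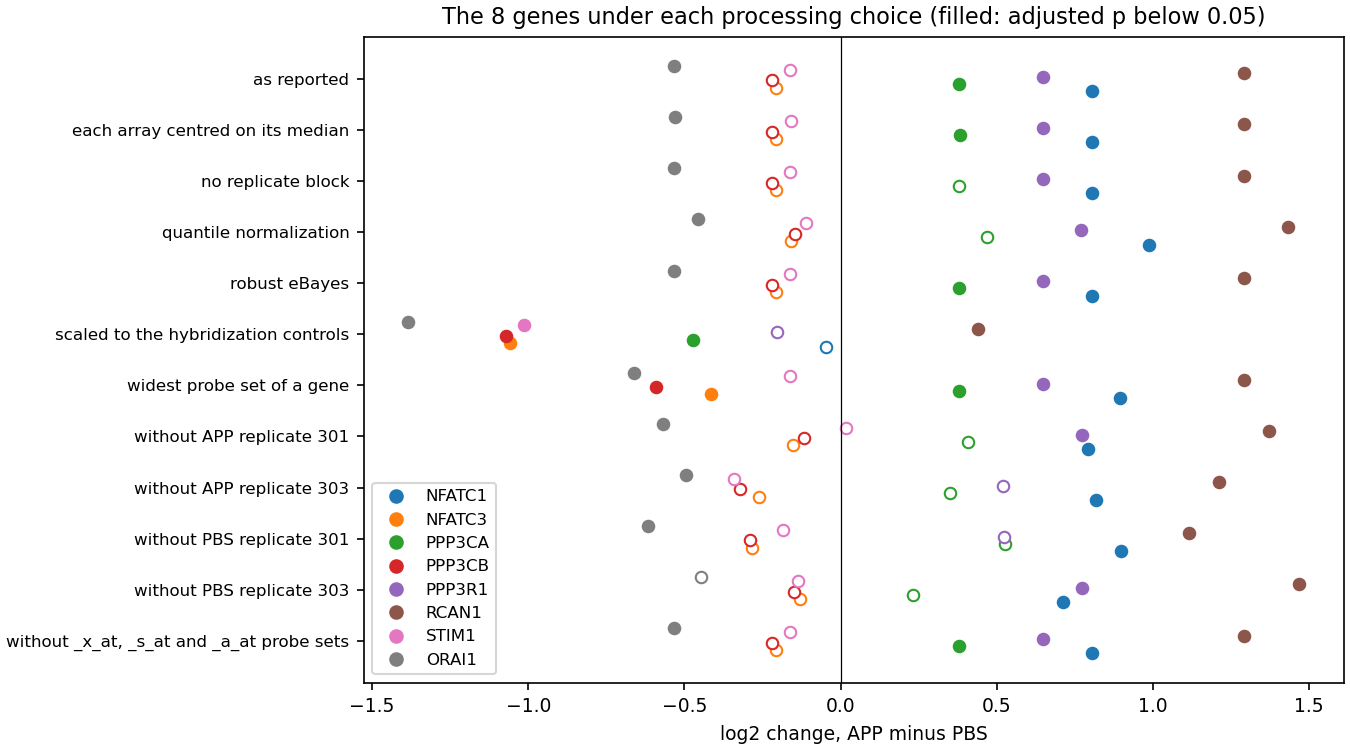
Log2 change, APP minus PBS (horizontal axis), of the 8 genes under the reported fit and 11 processing alternatives (rows), with filled points for adjusted p below 0.05. RCAN1 stayed above 0 in every row, from 0.44 to 1.47, and scaling to the hybridization controls moved all 8 genes to lower values.

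Further genes of the route were taken from 5 lists, in which 83 of 117 genes had a named probe set and 34 were not analysed here. The counts of each list are read beside the 23.0% of all genes that rose and the 29.7% that fell. Among 12 other genes of the NFAT and calcineurin families and their binding proteins, 3 rose (25%), 3 fell (25%) and 6 did not pass, shares near those of all genes, with a median change of 0.06. RCAN3, a relative of RCAN1, fell 3.25-fold, from 0.58 and 0.70 in PBS to -1.10 and -1.02 in APP (-1.69 in calf 301 and -1.72 in calf 303, limma adjusted p = 2.65e-05). It thus moved against RCAN1, with a gap between the 2 changes of 3.08 in calf 301 and 2.91 in calf 303. RCAN2, the third family member, changed by -0.01 (adjusted p = 0.914).

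AKAP5, which anchors calcineurin near membrane channels, fell by 1.45 in calf 301 and 0.92 in calf 303 (limma adjusted p = 0.000429). It was also higher in calf 303 by 1.10 (limma adjusted p = 0.0154), and its APP and PBS arrays lay only 0.08 apart. FKBP1A, the protein through which the drug tacrolimus blocks calcineurin, rose by 0.80 and 0.86 (adjusted p = 0.000409), and MYOZ1, known as a calcineurin-binding protein of muscle, by 0.52 and 0.69. All 3 genes of this list that rose were below 0 when scaled to the hybridization controls (FKBP1A at -0.02).

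Kinases that return NFAT to the cytoplasm, listed with the nuclear exporter XPO1, fell in 5 of 13 cases (38.5%), rose in 3 (23.1%) and did not pass in 5, against 29.7% and 23.0% of all genes, with a median of -0.26. MAPK14, the p38 alpha kinase, fell 2.71-fold (-1.41 in calf 301 and -1.47 in calf 303, limma adjusted p = 4.81e-05), and its 3 probe sets ran from -1.82 to -1.14. XPO1 fell 1.72-fold (-0.92 and -0.65), MAPK8, the JNK1 kinase, 1.69-fold (-0.59 and -0.92) and the casein kinase gene CSNK1G3 1.59-fold (-0.71 and -0.63, its 3 probe sets between -1.09 and -0.16). The risers were GSK3A (0.38), CSNK1G1 (0.39) and CSNK1D (0.34, with 0.09 to 0.97 over its 4 probe sets), and each of the 3 was below 0 when scaled to the hybridization controls. DYRK1B also fell (-0.46, limma adjusted p = 0.00704), while DYRK1A changed by -0.27 and did not pass (adjusted p = 0.0521, limma). GSK3B changed by -0.01 (adjusted p = 0.927).

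Of 21 genes for calcium release, entry and pumping, 9 rose (42.9%), 8 fell (38.1%) and 4 did not pass, both shares above those of all genes with no test of the difference, and the median was 0.03. On the side of release and entry, ITPR3, an inositol trisphosphate receptor that lets calcium out of the store, fell 1.82-fold (-0.81 in calf 301 and -0.91 in calf 303, limma adjusted p = 0.000371). The related ITPR1 fell by 0.41, with -0.77 to 0.18 over its 5 probe sets, PLCG1, the phospholipase that makes inositol trisphosphate, by 0.35, and ORAI3, a relative of ORAI1, by 0.32. The cation channel gene TRPV2 fell 2.50-fold (-1.35 and -1.30). On the same side KCNN4, a calcium-activated potassium channel, rose by 0.38, ITPKA, an inositol trisphosphate kinase, by 0.32, and SARAF, an inhibitor of store-operated entry, by 0.28.

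Among genes of calcium storage and mitochondrial handling, CALR, a calcium-binding chaperone of the endoplasmic reticulum, rose 1.87-fold (by 0.89 and 0.91 in calves 301 and 303) and the mitochondrial ion exchanger gene LETM1 1.88-fold (1.09 and 0.73). SLC8B1, the mitochondrial sodium-calcium exchanger, fell 2.57-fold (-1.09 and -1.63), MICU2, a regulator of the mitochondrial uniporter, by 0.49, and ATP2C1, a Golgi calcium pump, by 0.38. The other 4 measured pumps rose: ATP2B1, ATP2B2 and ATP2B4 of the plasma membrane by 0.67, 0.32 and 0.28, and ATP2A2 of the endoplasmic reticulum by 0.34, with -0.13 to 0.86 over its 4 probe sets. CALR also differed between the calves, by -0.65 for calf 303 minus calf 301 (limma adjusted p = 0.0272), with a gap of 0.25 between the treatments. Of the 9 genes of this list that rose, 7 were below 0 when scaled to the hybridization controls, while CALR and LETM1 stood at 0.05 and 0.06.

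Calmodulin-dependent kinases and the MEF2 branch, another arm of calcium signalling, had 5 rises (45.5%), 2 falls (18.2%) and 4 that did not pass among 11 genes, with a median of 0.27. HDAC7, a class II histone deacetylase that binds MEF2, rose by 0.64 in calf 301 and 0.68 in calf 303, and the cyclic AMP response factors CREM and CREB1 rose by 0.58 and 0.54, with 0.01 to 2.38 over the 6 probe sets of CREM and 0.13 and 0.94 for those of CREB1. CAMK2G fell 2.12-fold (-1.17 and -0.99, with -1.73 and -0.43 for its probe sets) and CAMK2D by 0.46. The measured MEF2 genes themselves did not pass, with MEF2A at -0.14 (limma adjusted p = 0.249) and MEF2C at 0.30 (limma adjusted p = 0.063). All 5 risers were below 0 when scaled to the hybridization controls.

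Of 26 genes known as NFAT targets in T cells, 13 rose (50%), 2 fell (7.69%) and 11 did not pass, with a median of 0.37. The largest changes of the list were those of CSF2, the growth factor GM-CSF, from -4.83 and -5.24 in PBS to 0.95 and 1.80 in APP, of IL2, from -2.34 and -2.69 to 0.82 and 2.48, of NR4A1 (3.77) and of CCL4 (3.43). Several other textbook targets did not pass in limma's test, among them IFNG (-0.03, adjusted p = 0.838), IL4 (0.17, adjusted p = 0.199), CD40LG (-0.01, adjusted p = 0.952) and IL3 (0.28, adjusted p = 0.065), which were singled out after their values had been seen. Ratios to a probe set's own median hold no level, so a transcript near background could not be told from an unchanged one. The members that fell were DGKA (-1.54) and TOX (-1.08). DGKA, a lipid kinase that removes diacylglycerol, fell by 1.76 in calf 301 and 1.32 in calf 303, and TOX, a nuclear factor of T cell differentiation, by 1.41 and 0.75. Both were higher in calf 303, DGKA by 0.97 (limma adjusted p = 0.0176) and TOX by 1.30 (limma adjusted p = 0.0144). The APP and PBS arrays of TOX overlapped, and its calves differed by more than the treatments. Of the 13 that rose, 3 were below 0 when scaled to the hybridization controls, where the median of the list was -0.48.

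**Figure D5:**
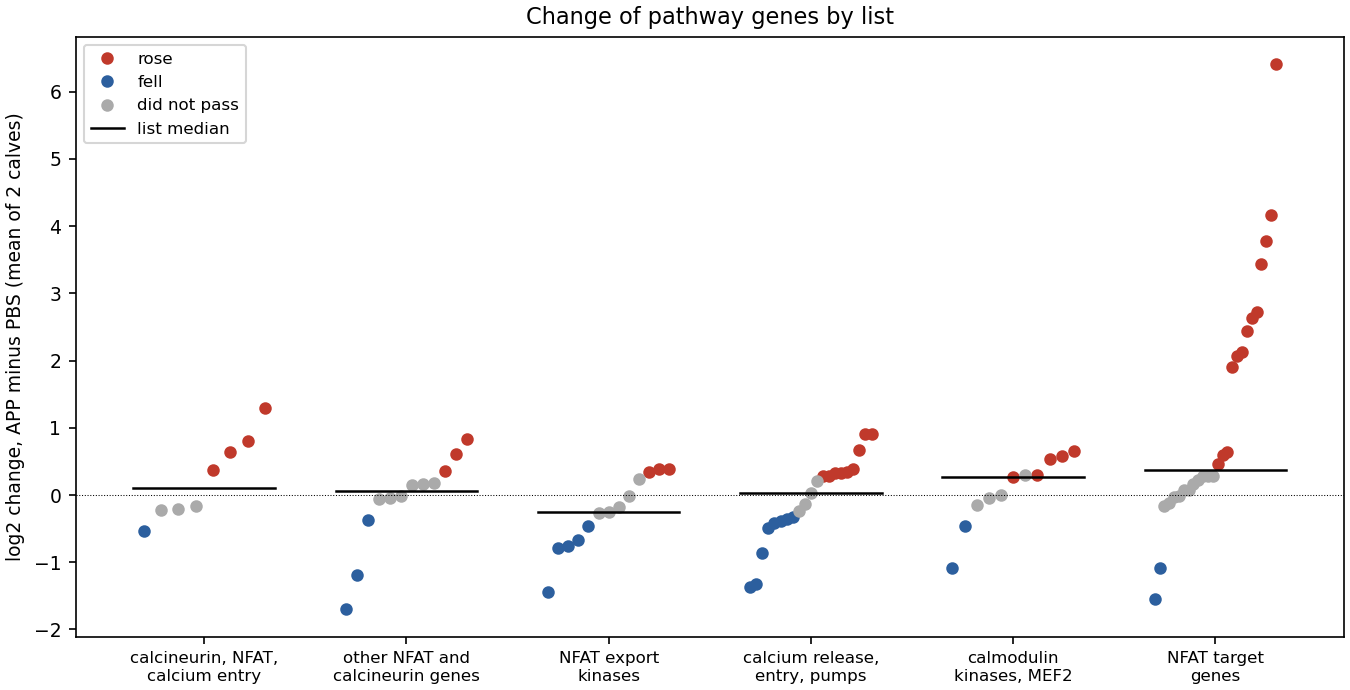
Log2 change, APP minus PBS, as the mean of the 2 calves (vertical axis), for each gene of the 8-gene set and of the 5 further lists (red rose, blue fell, grey did not pass, black line the list median). The medians lay between -0.26 for the NFAT export kinases and 0.37 for the NFAT target genes, whose highest gene, CSF2, reached 6.41.

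The genes closest to RCAN1 in pattern, by Euclidean distance over the 4 arrays after centring each gene on its mean, were LARP4 (distance 0.06), DDX56 (0.06), GNL3 (0.08), CCL5 (0.11) and NIFK (0.12), and 41 genes lay within 0.25. For ORAI1 they were RAP2C, MELK, MFF, KCTD1 and NUP214, at distances of 0.02 to 0.04, with 741 genes within 0.25. With 4 arrays many genes share a pattern by this measure, so it is a description only.

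Markers were read beside the labelled cell type, and their counts beside the 23.0% of all genes that rose and the 29.7% that fell. The lists are small and were not tested. Of 11 listed gamma delta T cell markers 6 were measured, of which 4 fell (66.7%) and none rose, with a median of -0.38. The CD3 genes, CD247 and CD2 among them are not particular to gamma delta T cells, so the count does not describe that cell type alone. No named probe set matched the symbols WC1, TRDC, TRGC1 or TRGC2, and other names of these genes were not searched. The cell type was thus not checked here by its own receptor genes. CD163L1, of the family of the WC1 coreceptors, changed by -1.08, CD247 by -0.53, CD3G by -0.47 and CD2 by -0.29, while CD3D (-0.13) and CD3E (-0.08) did not pass. In the other lists, 2 of 4 monocyte and dendritic cell markers rose (CD68 by 2.31 and CD14 by 0.46, the latter -0.39 under hybridization control scaling), 3 of 3 B cell markers fell, and 0 of 3 neutrophil, 0 of 2 platelet and 0 of 3 red cell markers passed in limma's test, with 1 of these 8, S100A9, at an unadjusted p under 0.05. Of the 3 NK cell markers 1 rose (KLRD1, 0.30, or -0.55 under that scaling), and of the 3 alpha beta T cell markers CD8A rose (1.08) and CD8B fell (-0.64). For CD8A, CD8B and CD2 the APP and PBS arrays overlapped, and the calves differed by more than the treatments, with calf 303 higher by 1.59, 2.30 and 1.10 (limma adjusted p = 0.00673, 0.000499 and 0.00382). Ratios to a probe set's own median hold no level, so whether a marker was present or near background could not be read, and the part of other cell types in the changes was not tested.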

How the data were processed

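The submitters' processing notes name RMA as the probe set summary and record no options for it. The values deposited by the authors are linear ratios. The mean of the middle values of each probe set lay between 0.982 and 1.001, from which each value was read as the signal over the probe set's median across the 4 arrays. A change near background is compressed, and probe sets near background cannot be found.

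The ratios were log2 transformed. After 112 control probe sets were left out, 24016 were tested, of which 13292 had 1 gene symbol, 86 several and 10638 none in the platform table. Symbols were updated by identifier through RefSeq (ARS-UCD2.0, names only), and 13263 were found. Probe sets of a gene were averaged. Treatment was tested with limma 3.58.1 in R 4.3.3 (lmFit, eBayes, two-sided, Benjamini-Hochberg over all features), with the calf as a block because the titles name the same calves in both treatments. The calf difference correlated between treatments with r = 0.514 across probe sets. The fit over genes had 1 residual and 5.86 prior degrees of freedom, and infinite prior degrees when scaled to the hybridization controls. Exact permutation of 2 arrays against 2, with the pairing by calf ignored, cannot go below p = 0.33. Permutation within calves has fewer arrangements, so its floor is higher. The script was tested on simulated data.

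The genes, lists and alternatives were chosen with earlier results of these data known. Of each list, at most 4 genes with the largest change were named, with any that passed against most of the list, and other genes were chosen after their values were seen. Promoter and protein sequences were not used here.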

Additional observations from a re-analysis of the deposited data

How the results depend on the processing

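Of the 11 alternatives, median centring, robust eBayes and leaving out _x_at, _s_at and _a_at probe sets kept every call on the 8 genes. Without the replicate block, 1399 genes and 2473 probe sets rose, and of the calls on the 8 genes that of PPP3CA was lost, as it was after quantile normalization. Scaled to the hybridization controls, 286 genes rose and 8182 fell, 615 probe sets rose and 21653 fell, and of the 8 genes 1 rose and 5 fell (1 and 8 of their 12 probe sets). NFATC1 (-0.047), PPP3R1 (-0.20) and PPP3CA (-0.47) reversed there, since the controls were higher on both APP arrays. With the probe set of widest range taken for each gene, 3 of the 8 genes fell, ORAI1, PPP3CB (-0.59) and NFATC3 (-0.42).

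Fits that left out 1 array had no block and fewer samples. Over them, 745 to 1292 genes rose and 1305 to 2012 fell, 1155 to 2406 probe sets rose and 2455 to 4281 fell. Of the 8 genes 2 to 3 rose and 0 to 1 fell, and of their 12 probe sets 2 to 4 rose and 0 to 3 fell. The change of STIM1 ran from -0.34 to 0.017, reversing when the APP array of calf 301 was left out. The count of calf differences among the 8 genes was 0 in every fit that had a calf term. The number of arrays and the lost signal level limit each of these results.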
